A study of Mus musculus with 6 samples.

Results

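The 10 genes described here carry out or regulate fatty acid oxidation. They were taken by symbol from a deposited table of 13595 genes, in which all 10 were present and passed the filter on low values. They are the carnitine palmitoyltransferases Cpt1a and Cpt2, the acyl-CoA dehydrogenases Acadvl, Acadl and Acadm, the trifunctional protein subunits Hadha and Hadhb, the nuclear receptors Pparg and Ppard, and the secreted lipase inhibitor Angptl4. RNA was measured in cultured CD31-positive cells, a selection for an endothelial surface marker, from livers of C57BL6/J mice aged 4 weeks. All 6 libraries, 3 labelled male and 3 labelled female, came from cells given 100 µM indoxyl sulfate, a tryptophan metabolite that activates the aryl hydrocarbon receptor (AHR), together with 6 hours of hypoxia and nutrient deprivation. Cells without these treatments were not analysed here, so the one comparison is that between the sexes under a shared treatment. The labels do not say whether replicates 4, 5 and 6 are separate mice, isolations or wells, so the p-values measure only the spread between these libraries.

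Mitochondria burn long-chain fatty acids in steps. Cpt1a attaches the fatty acid to carnitine at the outer membrane, Cpt2 returns it to coenzyme A inside, the dehydrogenases open each round of the spiral according to chain length, and the trifunctional protein performs the remaining steps on long chains. The peroxisome proliferator-activated receptors (PPARs) are fatty acid sensors that pair with retinoid X receptors and induce many of these genes, and in endothelial cells fatty acid oxidation is known to serve nucleotide synthesis and redox balance.

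In the libraries labelled female, the receptors and Angptl4 were lower, while the 7 enzymes differed little. Pparg stood at 42.9% of its level in the libraries labelled male, Angptl4 also at 42.9%, and Ppard at 58.4%. The enzymes lay between 82.7% (Acadvl) and 134% (Hadhb). Of the 10 genes, 4 were called lower (Pparg, Ppard, Angptl4 and Acadvl) and 2 higher (Hadhb and, only just, Cpt1a) at a limma adjusted p under 0.05. That is 60.0% of them, in a contrast where 69.3% of all 12568 tested genes were called, 34.6% lower and 34.6% higher. The groups did not overlap for 6 of the 10 genes, against 74.1% of all tested genes. Called with a log2 difference of at least 1 in size were Pparg and Angptl4, 2 of 10, against 20.6% of all tested genes.

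Values are normalized read counts, in which the reads of every gene in a library were divided by 1 factor. Log2 differences are female minus male on the scale of log2(value + 1). Library totals ran from 22303270 to 31189363 reads, and each of the 10 genes had between 594 and 11073 reads in a library. Male replicate 4 stood apart from its group, with a chi-square per gene of 43.6 and 45.4 against the other male libraries, compared with 5.98 between those and 4.35 to 9.59 among the female libraries. Xist, the RNA of X inactivation, followed the sex labels (286 ± 46.7 in female and 0.323 ± 0.176 in male, SD, n = 3). Transcripts of the Y-linked genes Ddx3y, Uty, Eif2s3y and Kdm5d were nevertheless present in every library labelled female, at 51.3% to 91.5% of their male level. Eif2s3y (limma adjusted p 5.76e-06) and Kdm5d (limma adjusted p 0.000129) were called lower in female, and Ddx3y and Uty were not called. Xist and the Y-linked transcripts thus disagree about the sex label, and the cause was not tested. For this reason "female" and "male" are used here only for libraries so labelled. Marker genes of cell types differed with the label too. Of 14 endothelial markers, 13 were tested and 11 were lower and 1 higher in female, with a summed level of 1220.0 to 1275 against 2388 to 2507 in male. The transcript of CD31 itself, Pecam1, averaged 73.9 ± 0.540 in female and 407 ± 16.2 in male (SD, n = 3). Of 14 stellate, mural and fibroblast markers, 12 were tested, with 9 lower and 3 higher and sums of 3401 to 4061 in female against 2894 to 3727 in male. That sum rested on the contractile genes Acta2 (1694 ± 187 in female, 78.6 ± 47.9 in male, SD, n = 3) and Tagln (1057 ± 142 and 52.1 ± 27.5, SD, n = 3). Without these genes the sum was 977 to 995 in female against 2798 to 3509.8 in male. Leaving out male replicate 4, the male means of Acta2 and Tagln were 51.2 and 36.4. Fewer cells of a type and less RNA per cell cannot be told apart in such samples, and the part of these markers in the results was not tested.

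Cpt1a (chromosome 19), the rate-limiting entry gate of the pathway, was abundant and nearly even across the libraries. It read 305, 289 and 307 in male replicates 4, 5 and 6 and 326, 329 and 336 in the same order in female. The groups did not overlap, but the gap was small: the female mean was 110.1% of the male one. The log2 difference was 0.14 (SE 0.055, 95% interval 0.014 to 0.26, limma adjusted p 0.0488). This call was lost in 12 of 18 alternatives, among them edgeR (adjusted p 0.0648), DESeq2 (0.0579) and the fit without any one of the libraries except male replicate 4, and the adjusted p over the 18 ran from 0.00232 to 0.158. The difference was larger, and called, with quantile normalization (0.25, adjusted p 0.00265) and with corrections for GC content and length (0.24, 0.00232, with the longest coding transcript and 0.20, 0.00574, with the principal transcript). Cpt2 (chromosome 4), the inner-membrane partner, was far less abundant. Its values were 30.8, 27.8 and 25.7 in male and 29.0, 26.3 and 28.6 in female. The female values lay inside the male range, and the log2 difference was -0.0058 with an interval of -0.21 to 0.20 (limma adjusted p 0.957).

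Among the dehydrogenases, Acadvl, which acts on very long chains at the inner membrane, was lower in female, and Acadl and Acadm were not called. Acadvl (chromosome 11) read 93.3, 90.3 and 89.3 in male against 77.7, 75.5 and 72.5 in female. Every female library lay under every male one, with a log2 difference of -0.27 (SE 0.058, limma adjusted p 0.00319). When differences were corrected for GC content and length, Acadvl lost its call, at -0.13 (adjusted p 0.0919) with the longest coding transcript and -0.12 (0.0885) with the principal transcript. With the former correction 69.7% of all tested genes were called. Over the 18 alternatives the adjusted p of Acadvl ran from 0.000595 to 0.0919. In GENCODE M21, 1151 of the 2686 exon bases of Acadvl overlap Dvl2 on the opposite strand, and whether reads were counted by strand is not given in the sources used here. Dvl2 was itself lower in female (19.3 ± 2.20 against 28.5 ± 1.42, SD, n = 3, log2 difference -0.54, limma adjusted p 0.00120).

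Acadl (chromosome 1), the long-chain dehydrogenase, was the most abundant of these 3. It read 199.8, 172 and 177 in male and 166, 165 and 179 in female. The groups overlapped, and the log2 difference was -0.10 (95% interval -0.27 to 0.066, limma adjusted p 0.240). With the principal-transcript correction it was called lower (-0.19, adjusted p 0.0431, in a range over the alternatives of 0.0431 to 0.924), the only 1 of 18 alternatives that called it. Without male replicate 4 the difference was -0.037 (adjusted p 0.528). Acadm (chromosome 3), the medium-chain enzyme, read 36.7, 27.2 and 30.3 in male and 33.7, 34.1 and 37.7 in female. The highest male value, from replicate 4, lay inside the female range, and the log2 difference was 0.17 (95% interval -0.087 to 0.43, limma adjusted p 0.206). Without male replicate 4 it was 0.28 and called higher, with an adjusted p of 0.00805 in a range over the alternatives of 0.00805 to 0.570. Without male replicate 5 it was 0.075 (adjusted p 0.570).

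The trifunctional protein holds equal numbers of an alpha subunit, Hadha, with the hydratase and dehydrogenase activities, and a beta subunit, Hadhb, with the thiolase activity. Hadha read 201, 183 and 175 in male and 189.6, 186 and 187 in female. The female values lay within the male range, with a log2 difference of 0.0095 (95% interval -0.14 to 0.16, limma adjusted p 0.903). Hadhb read 74.6, 65.7 and 68.3 in male and 94.0, 94.3 and 91.9 in female. Here the groups were apart, and the log2 difference was 0.42 (SE 0.066, 95% interval 0.27 to 0.57, limma adjusted p 0.000523). The ratio of Hadha to Hadhb reads, which no scaling of a library can alter, was 2.70, 2.78 and 2.56 in male and 2.02, 1.97 and 2.03 in female. All female ratios lay under the male ones, and the female mean divided by the male mean was 0.748, or 0.732 to 0.763 with any single library left out.

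The Hadhb difference depended on the correction for GC content and length, which were corrected together. The longest coding transcript of Hadhb has a GC content of 39.1% and 4388 bases, and the principal transcript 45.4% and 2048 bases. Corrected with the former, Hadhb was not called (0.18, adjusted p 0.0615), and with the latter it was (0.34, 0.00185). Over the 18 alternatives the adjusted p of Hadhb ran from 2.90e-06 to 0.0615. In addition, 19.7% of the 50-base words of Hadhb transcripts also occur at other loci, such as Gm13910 and Gm9108, so part of its reads is uncertain in origin. For each of the other 9 genes this share was at most 2.04%, the value of Acadm.

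Hadha and Hadhb are neighbours on chromosome 5, transcribed away from each other from starts 273 bases apart. Their RefSeq promoter windows, each from 250 bases before the start to 50 after it, share 228 bases. The Hadhb window (GRCm38.p6, chr5:30155003-30155302, plus strand) is shown because these diverging transcripts share most of it, and its capitals mark the single match to the motifs named with the receptors.
Hadhb: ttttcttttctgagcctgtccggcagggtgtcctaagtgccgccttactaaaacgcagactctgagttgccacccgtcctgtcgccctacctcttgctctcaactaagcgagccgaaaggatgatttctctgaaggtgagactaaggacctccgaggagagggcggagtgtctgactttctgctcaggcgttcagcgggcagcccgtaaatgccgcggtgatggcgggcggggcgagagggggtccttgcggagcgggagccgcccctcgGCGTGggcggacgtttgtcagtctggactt
The match is GCGTG, 20 bases downstream of the start, and the Hadha window held none.

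**Figure D1:**
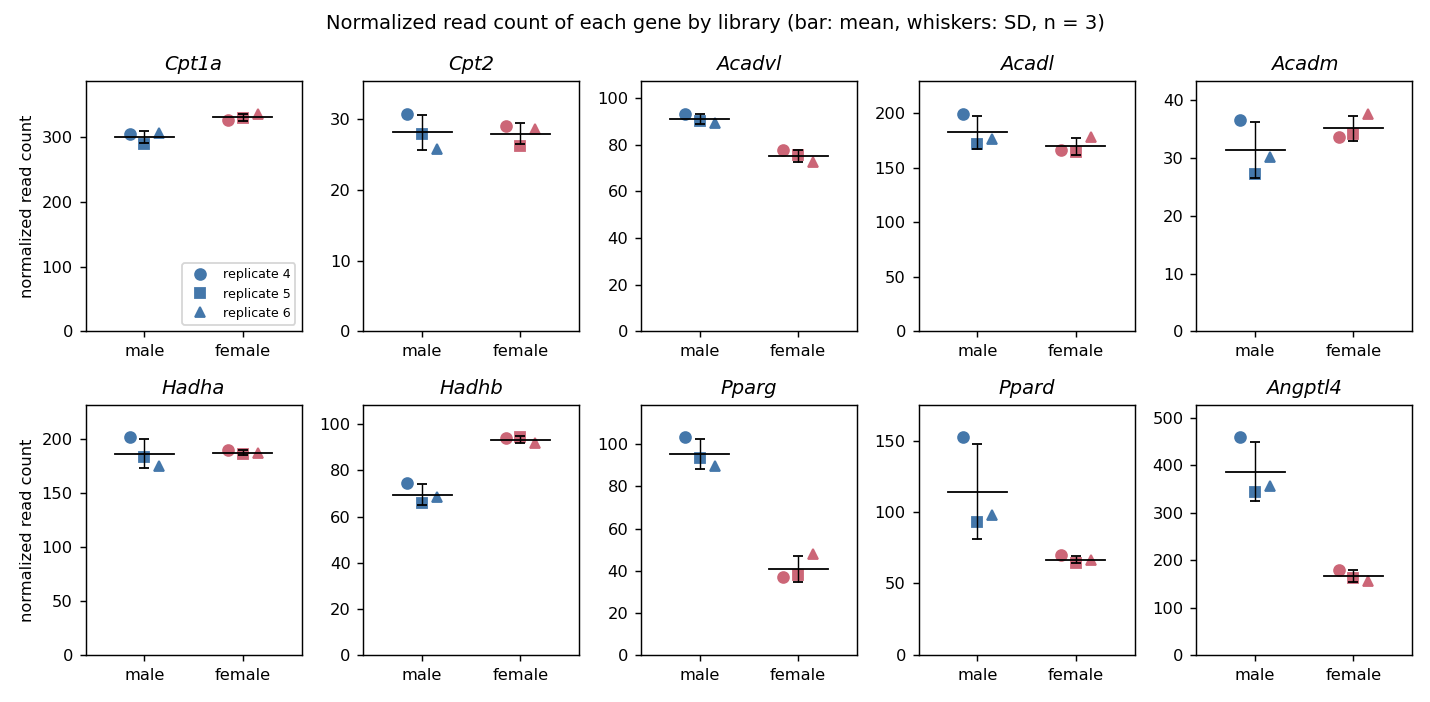
Normalized read count (y axis, from 0) of each of the 10 genes in the 3 libraries labelled male and the 3 labelled female. Points are libraries, shaped by replicate number, horizontal bars are means and whiskers SD. Pparg, Ppard and Angptl4 are lower in all 3 female libraries and highest in male replicate 4, and Hadhb is higher in all 3 female libraries while Hadha overlaps.

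The receptors showed larger differences than the enzymes. Pparg (chromosome 6), the PPAR best known from adipocytes and also present in endothelium, read 103, 93.4 and 89.7 in male against 37.0, 37.8 and 48.0 in female. The highest female library was well under the lowest male one. The log2 difference was -1.21 (SE 0.11, 95% interval -1.46 to -0.96, limma adjusted p 1.96e-05), and Pparg was called lower in all 18 alternatives, with differences from -1.33 to -1.14. Adipocyte markers were near 0: of 6 listed, 4 were in the table and 0 passed the filter, and their summed level was 0.0353 to 0.153 in male and 0 to 0.309 in female.

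Ppard (chromosome 17), the more widely expressed receptor, read 152, 93.1 and 97.8 in male against 69.6, 64.5 and 66.2 in female. Male replicate 4 stood far above the other male libraries, yet those also lay above all female ones. The log2 difference was -0.73 (SE 0.17, 95% interval -1.11 to -0.35, limma adjusted p 0.00423). Without male replicate 4 it was -0.51 and Ppard was still called lower, as in all 18 alternatives (-0.86 to -0.50). The fold threshold of 1 on the log2 scale is not among these 18, and Ppard did not reach it. The ratio of Pparg to Ppard reads was 0.678, 1.004 and 0.918 in male and 0.531, 0.586 and 0.725 in female, so that the groups overlapped on this measure through male replicate 4.

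The promoter windows of the receptors are shown as examples, with capitals marking matches on either strand. The motifs searched were AGGTCANAGGTCA (the paired PPAR element), its AGGTCA unit, ACGTG (a core of the hypoxia-inducible factor element) and GCGTG (the core of the AHR element, which some hypoxia elements also contain). For Pparg the window is that of the most upstream of 3 listed starts (GRCm38.p6, chr6:115360894-115361193, plus strand), and for Ppard that of its listed start (chr17:28232504-28232803, plus strand).
Pparg: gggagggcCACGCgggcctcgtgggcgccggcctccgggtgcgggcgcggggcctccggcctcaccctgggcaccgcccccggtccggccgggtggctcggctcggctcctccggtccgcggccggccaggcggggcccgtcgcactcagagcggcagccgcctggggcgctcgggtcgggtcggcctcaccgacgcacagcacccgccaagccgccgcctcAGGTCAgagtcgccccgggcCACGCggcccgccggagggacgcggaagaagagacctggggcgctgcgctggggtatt
Ppard: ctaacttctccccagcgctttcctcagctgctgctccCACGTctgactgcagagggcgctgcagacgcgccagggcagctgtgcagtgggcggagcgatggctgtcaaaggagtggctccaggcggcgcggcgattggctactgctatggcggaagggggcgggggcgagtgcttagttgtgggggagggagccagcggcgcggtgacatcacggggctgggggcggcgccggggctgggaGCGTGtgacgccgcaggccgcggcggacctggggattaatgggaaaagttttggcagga
The Pparg window held AGGTCA 28 bases before the start and GCGTG on the opposite strand 242 and 8 bases before it. The Ppard window held ACGTG on the opposite strand 213 bases before the start and GCGTG 9 bases before it. Over 32851 RefSeq windows of 300 bases, 0.0396% held the paired element, 16.3% the AGGTCA unit, 19.6% ACGTG and 32.4% GCGTG. Windows were found for 9 of the 10 genes, all but Angptl4, and none held the paired element. Among the enzymes, the AGGTCA unit was found in the windows of Acadvl (called lower), Acadm (not called) and Cpt1a (called higher). The AHR core was found in those of Acadvl, Acadm, Cpt2 (not called) and Hadhb (called higher). The hypoxia core was found in the window of Acadvl. Acadl and Hadha held none. Of the other starts of Pparg, one had AGGTCA 9 bases before it and the other no match.

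Angptl4 (chromosome 17) encodes a secreted inhibitor of lipoprotein lipase and is a known target of PPARs and of hypoxia. It read 459, 345 and 357 in male against 179.7, 163 and 155 in female. All female libraries lay far under the male ones, with male replicate 4 the highest. The log2 difference was -1.21 (SE 0.11, 95% interval -1.46 to -0.95, limma adjusted p 2.51e-05), and -1.08 without male replicate 4. Angptl4 was called lower in all 18 alternatives, with differences from -1.28 to -1.08.

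**Figure D2:**
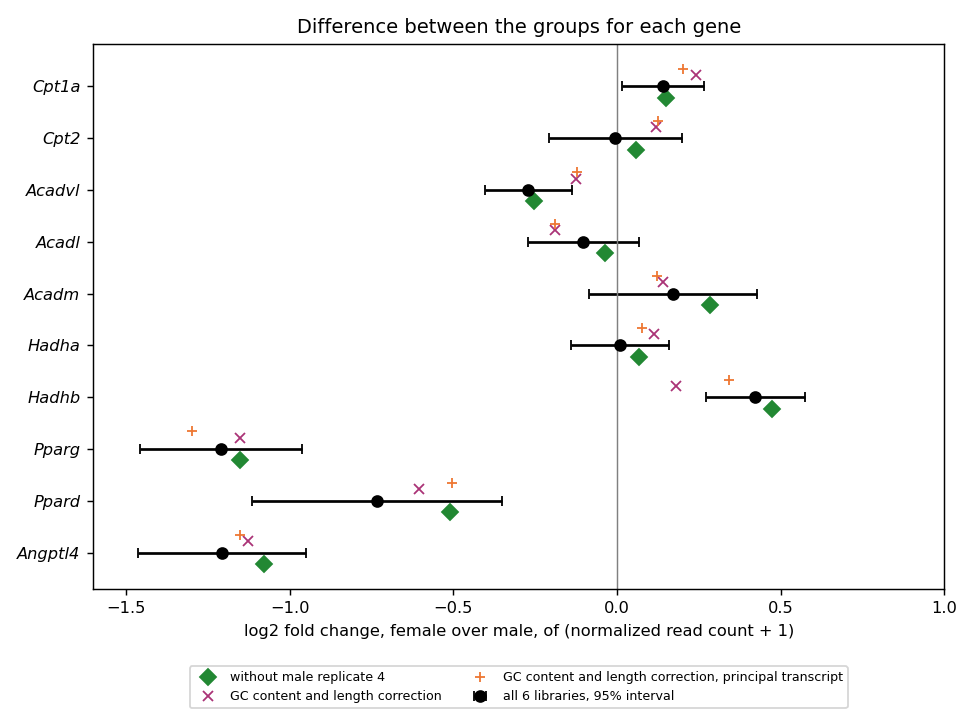
Log2 fold change of female over male on the scale of log2(normalized read count + 1) for each gene (x axis). Black points with 95% intervals are limma values with all 6 libraries, diamonds leave out male replicate 4, and crosses and plus signs are corrected for GC content and length with the longest coding and the principal transcript. Pparg, Ppard and Angptl4 lie under 0 throughout, and Hadhb moves from 0.42 to 0.18 or 0.34 with the corrections.

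Set beside the whole table, the enzymes sat near its centre. Their log2 differences had a median of 0.0095, against 0.014 for all tested genes, and a median size without regard to sign of 0.14 against 0.46. Between 52.9% (Hadhb) and 99.3% (Cpt2) of tested genes had a larger difference than the enzyme named. Pparg and Angptl4 were exceeded by 15.4% and 15.5% of tested genes, and Ppard by 31.3%. The summed normalized reads of the 7 enzymes were 941, 854 and 872 in male and 916, 909.8 and 933 in female, and these ranges overlapped.

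**Figure D3:**
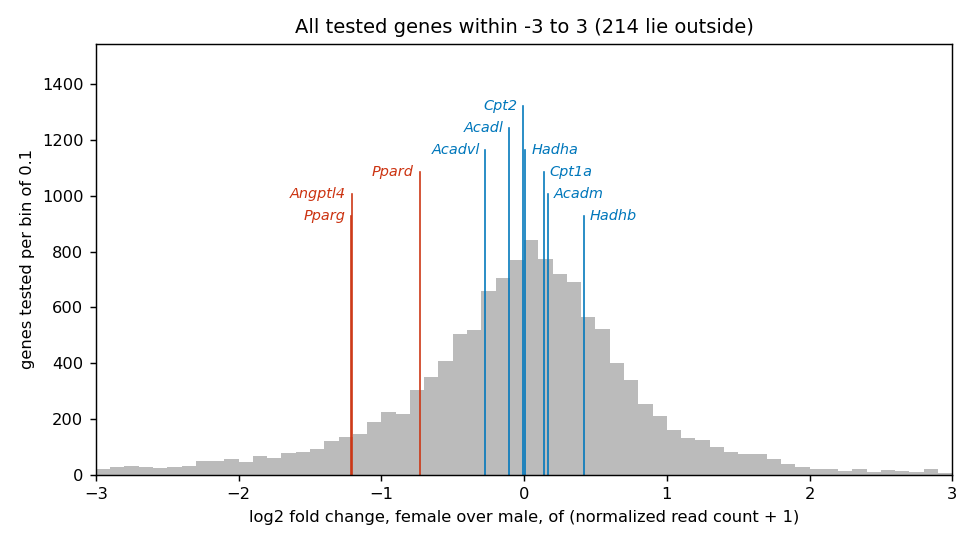
Histogram of the log2 fold change of female over male for the 12568 tested genes (x axis; y axis, genes per bin of 0.1), with 214 genes beyond -3 or 3 not drawn. Vertical lines mark the 7 enzymes (blue) and the receptors and Angptl4 (red), and line heights only separate the names. The enzymes lie between -0.27 and 0.42 around the peak, and Pparg and Angptl4 at -1.21 on the lower flank.

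Per kilobase of principal transcript, which allows levels of different genes to be set side by side, the order of the genes differed between the groups. In male, Angptl4 ranked highest at 117 ± 19.01 normalized reads per kb (levels per kb are mean ± SD, n = 3), followed by Acadl at 95.4 ± 7.85, and their library ranges overlapped. Cpt1a (69.5 ± 2.25), Pparg (54.0 ± 3.96), Hadha (46.4 ± 3.38) and Acadvl (42.0 ± 0.955) came next. Ppard (34.9 ± 10.04), with libraries from 28.4 to 46.5, overlapped Hadha and Acadvl above it and Hadhb (33.96 ± 2.23) beneath it. In female, Acadl (88.6 ± 4.03) and Cpt1a (76.5 ± 1.25) ranked above Angptl4 (50.2 ± 3.76), whose range overlapped that of Hadha (46.6 ± 0.5001). Hadhb (45.6 ± 0.642) and Acadvl (34.7 ± 1.21) came next, and Pparg (23.2 ± 3.48) and Ppard (20.4 ± 0.791) overlapped. Acadm and Cpt2 were lowest in each group, at 15.3 ± 2.36 and 11.9 ± 1.06 in male and 17.2 ± 1.07 and 11.8 ± 0.623 in female. The order rests on the transcript length taken for each gene.

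The rest of the pathway was followed in gene lists, described by their counts beside the background of 69.3% called. In the carnitine shuttle, which moves acyl groups across membranes, 3 of 7 tested genes were higher and 2 lower (median log2 difference 0.22). The higher ones were the carnitine acyltransferases Crat (0.26) and Crot (0.25) and the malonyl-CoA decarboxylase Mlycd (0.42). Crot lost its call with both corrections for GC content and length (0.15 in each). The lower ones were Acacb (-0.89), which makes malonyl-CoA, the inhibitor of Cpt1 enzymes, and the Cpt1 paralog Cpt1c (-0.57). Acacb averaged 6.95 ± 0.451 in male and 3.30 ± 0.205 in female (SD, n = 3), with groups apart (limma adjusted p 0.000101). The carrier Slc25a20 was not called (0.063, limma adjusted p 0.464), and the muscle isoform Cpt1b was too low to test.

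In the mitochondrial spiral outside the 7 enzymes, 9 of 16 tested genes were lower and 3 higher, with a median log2 difference of -0.25. The lowest were Hadh (-1.05), the short-chain hydroxyacyl-CoA dehydrogenase, Acaa2 (-0.88), a mitochondrial thiolase, and Echs1 (-0.80), the short-chain hydratase. Hadh read 85.3, 87.4 and 86.2 in male and 41.3, 39.4 and 42.5 in female, a wide gap beside the spread within groups (limma adjusted p 1.66e-06). Acad11 (0.52), Acads (0.45) and Acad9 (0.39), all of the acyl-CoA dehydrogenase family, were higher. Of the electron transfer flavoprotein genes, which pass the electrons on, Etfa (-0.11, limma adjusted p 0.196) and Etfb (-0.033, limma adjusted p 0.734) were not called. The dehydrogenase that takes these electrons on, Etfdh, was called lower (-0.17, limma adjusted p 0.0349), and is named to complete this step, after its value was seen.

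Peroxisomal oxidation, which shortens very long chains, had 7 of 12 tested genes lower and 2 higher (median -0.43). Scp2, which encodes a sterol carrier and a thiolase, averaged 73.6 ± 3.27 in female against 169 ± 10.8 in male (SD, n = 3, log2 difference -1.19, limma adjusted p 1.66e-06). The thiolase Acaa1a (-0.99) and the weakly expressed transporter Abcd2 (-1.48) were also lower. Abcd2 averaged 0.367 ± 0.0429 in female, from 7 to 10 reads per library, against 2.82 ± 0.120 in male (SD, n = 3). Hsd17b4 (0.27) and the weakly expressed Ehhadh (0.62), which encode multifunctional enzymes, were higher.

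Genes of fatty acid uptake and activation had 5 of 13 tested lower and 4 higher (median -0.083). The lipid chaperone Fabp4, found in capillary endothelium and adipocytes, averaged 156 ± 20.4 in female against 1024 ± 111 in male (SD, n = 3, log2 difference -2.71, limma adjusted p 2.94e-07). The fatty acid transport proteins Slc27a3 (-2.25) and Slc27a1 (-1.68) were lower too, whereas the acyl-CoA binding protein Dbi (0.55), Fabp5 (0.41) and the weakly expressed Fabp3 (0.80) were higher. Gpihbp1, which anchors lipoprotein lipase to capillaries, had 0 reads in each female library. Its male mean was low, at 0.933 ± 0.258 (SD, n = 3), and the gene was too low to test. Taking 3 reads per library as the limit that a count of 0 allows, that mean was 7.01 times the female limit of 0.133. The spread of the male libraries is not part of this figure.

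Other PPAR target genes, a list that shares 8 genes with the lists of uptake, shuttle, peroxisome and lipid storage, had 8 of 14 tested lower and 3 higher (median -0.61). Plin4, a lipid droplet coat protein, read 86.8, 99.5 and 104 in male and 6.60, 9.55 and 11.1 in female (log2 difference -3.30, limma adjusted p 6.78e-07). Among the lower genes of this list, Fabp4 and the transcription factor Klf10 (-1.85) followed Plin4 in size. Pdk4, the kinase that restrains pyruvate oxidation, went the other way from Angptl4, at 131, 75.9 and 73.3 in male and 688, 638 and 607 in female. The lowest female library was far above every male one, with a log2 difference of 2.82 (SE 0.20, limma adjusted p 4.89e-06). Vnn1 (1.29) and Ehhadh were the other genes called higher, and the droplet coat gene Plin2 was not called (0.088, limma adjusted p 0.255).

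The partners and cofactors of the PPARs had 4 of 13 tested lower and 2 higher (median -0.054). Lpin1 (-0.84), Ncoa1 (-0.74) and the retinoid X receptor Rxrb (-0.39) were lower, and the corepressor Nrip1 (1.16) and the receptor Esrra (0.63) higher. The remaining lower gene, named after its value was seen, was Rxra (-0.33). Rxrb lost its call with the corrections for GC content and length (-0.094 and -0.10). Ppara was not analysed here, and Ppargc1a was too low to test, at 0.724 ± 0.0309 in female and 0.803 ± 0.168 in male (SD, n = 3).

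Lipid storage and lipolysis genes had 6 of 13 tested lower and 4 higher (median -0.16). Hilpda (-2.52) and G0s2 (-2.48), both inhibitors of the lipase Pnpla2, and the triglyceride synthase Dgat2 (-1.72) were lower. The monoglyceride lipase Mgll (2.36), the Pnpla2 activator Abhd5 (0.47) and the acyltransferase Agpat2 (0.40) were higher. The citric acid cycle, which takes up the acetyl-CoA from oxidation, had 5 of 18 tested lower and 7 higher (median 0.049). Idh3a (0.68), Cs (0.49) and Fh1 (0.31) were the highest, and Idh2 (-0.64), Suclg2 (-0.39) and Idh3g (-0.31) the lowest.

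**Figure D4:**
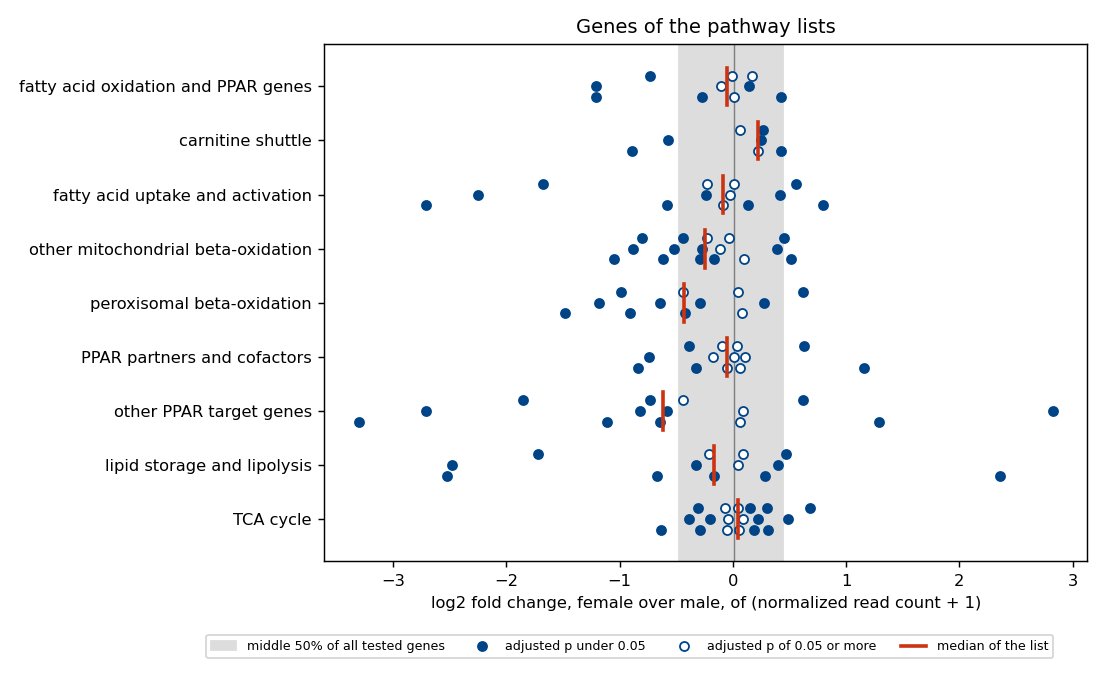
Log2 fold change of female over male (x axis) for the tested genes of each list (rows). Filled points have a limma adjusted p under 0.05 and open points do not, red bars are list medians, and the grey band holds the middle 50% of all tested genes, from -0.47 to 0.44. The 7 enzymes fall inside the band, whereas other PPAR targets spread from -3.30 (Plin4) to 2.82 (Pdk4).

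The authors' deposited table has its own comparison of the groups, in which 25.8% of 13595 genes had a false discovery rate under 0.05. Of the 10 genes, Pparg alone was under 0.05 in the authors' deposited table, with a fold change of -2.33 and a false discovery rate of 0.0168. Angptl4 (fold change -2.33, false discovery rate 0.0654) and Ppard (-1.71, 0.0770) were above the threshold in the authors' deposited table, as were Hadhb (1.34, 0.185) and Acadvl (-1.21, 0.492).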

How the data were processed

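Poly(A)-enriched RNA was made into libraries with Kapa HyperPrep, per the labels' protocols, and the submitters' processing notes name Bowtie2, RSEM, edgeR and the build mm39. The deposited signal columns are normalized read counts. Divided by the lowest nonzero entry of its column, 100% of values came out whole within 0.01, so the authors had divided whole reads by 1 factor per library, and the reads could be recovered. A deposited score column gives the authors' signed fold change, and deposited p-value columns their p-values and false discovery rates, per the file headers.

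limma 3.58.1 in R 4.3.3 (eBayes with trend) was fitted to log2(value + 1) for the 12568 genes that reached 1 in 3 or more libraries, with Benjamini-Hochberg adjustment over all of them and a threshold of 0.05. This scale understates differences of weakly expressed genes. Alternatives were other scalings (RLE, TMM, quantile), a pseudocount of 0.1, other filters, a replicate block and each library left out. Further ones were edgeR 4.0.16, DESeq2 1.42.0 and voom on recovered reads. A fold threshold was applied to counts of genes only and is not among the 18 alternatives given for a gene. Added after seeing the data were 2 corrections for GC content and length (GENCODE M21, splines with 5 degrees of freedom), with 95.5% (longest coding transcript) and 93.2% (principal transcript) of tested genes covered. Scripts were tested on simulated data. The 10 genes and all lists were chosen with earlier results of these data known. Named were the 10 genes and, per list, up to 3 called genes in each direction with the largest differences and groups apart. For Angptl4, Pparg and Cpt1a the 3 nearest genes were named too. Named outside these rules were Gpihbp1, Slc25a20, Cpt1b, Etfa, Etfb, Etfdh, Plin2, Rxra, Ppara, Ppargc1a and Dvl2. The same holds for the genes used as markers or to check the labels. Promoters are RefSeq sequences of GRCm38.p6. Limits for a count of 0 cover counting error only.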

Additional observations from a re-analysis of the deposited data

How the results depend on the processing

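Of 180 values recomputed for the 10 genes, 154 kept direction and call, among them all those of Pparg, Ppard and Angptl4. The number called higher was 1 in place of 2 with RLE or TMM factors, 10 reads required in every library, edgeR, DESeq2, voom or the replicate block, where Cpt1a lost its call, and with the longest-transcript GC correction, where Hadhb did. It was 1 to 3 with each library left out, and 3 without male replicate 4, where Acadm joined. Genes not called changed sign: Cpt2 was 0.052 with quantile normalization, 0.12 with each GC correction and -0.065 to 0.059 with each library left out. Acadl was 0.0064 with quantile normalization. Hadha was -0.00094 with RLE factors and -0.034 to 0.066 with each library left out. Atad1, a gene near Cpt1a in pattern, was -0.10 and -0.16 with the GC corrections in place of 0.14. The cause was not tested.

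With each library left out, the higher counts were 1 to 3 in the carnitine shuttle (1 without female replicate 6), 2 to 4 in uptake (2 without any one female library), 2 to 4 in lipid storage (2 without female replicate 4 or 5) and 4 to 7 in the citric acid cycle (4 without female replicate 5). PPAR partners had 4 higher with quantile normalization. A fold threshold of 1 on the log2 scale, which by construction drops smaller differences, left 2589 of 8704 called genes. Among the 10 genes it left 2 lower and 0 higher. The lower and higher counts became 0 and 0 in the carnitine shuttle, 3 and 0 in uptake, 1 and 0 in the mitochondrial spiral, 2 and 0 in peroxisomes, 0 and 1 among PPAR partners, 3 and 1 in lipid storage, 0 and 0 in the citric acid cycle and 4 and 2 among PPAR targets.

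Libraries of equal replicate number showed no shared deviation: across genes, deviations from the group mean correlated at -0.094, -0.030 and -0.17 for numbers 4, 5 and 6. With 3 libraries per group and male replicate 4 apart from its group, this cannot exclude that equal numbers mark paired libraries. The replicate block gave 8314 calls, 8241 of them shared, and Cpt1a alone of the 10 genes lost its call (limma adjusted p 0.108, range over the alternatives 0.00232 to 0.158).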

Other observations

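The genes nearest to 3 of the 10 genes, by Euclidean distance between mean-centred log2(value + 1) over the 6 libraries, are given as a description. Ctns, Kdm4b and Gadd45a were nearest to Angptl4, at distances of 0.0977, 0.153 and 0.158. Tmem252, Fut11 and E130102H24Rik were nearest to Pparg, at 0.119, 0.124 and 0.1302. Tmem252 (mean 1.66 in male and 0.111 in female) and E130102H24Rik (3.23 and 0.780) were weakly expressed. Adding 1 shrinks such differences, so their change relative to level was larger than that of Pparg (95.5 and 40.9). Rab1, Atad1 and Kdm4a were nearest to Cpt1a, at 0.0178, 0.0282 and 0.0331.

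Markers of further cell types also differed between the groups. Of 12 liver sinusoidal endothelial markers, 6 were tested, with 4 lower and 2 higher in female and sums of 58.7 to 62.7 against 524 to 559.9 in male. Most of this gap in sums was Lyve1 (4.98 ± 0.566 against 498 ± 24.8, SD, n = 3): without it the sums were 54.4 to 57.6 in female and 45.0 to 54.0 in male. The remaining tested markers were divided: Stab1 (log2 difference -2.49), Bmp2 (-1.18) and Flt4 (-0.69) were lower, and Maf (1.37) and Gata4 (2.80) higher, with Gata4 at 32.1 ± 0.858 in female against 3.75 ± 0.0909 in male (SD, n = 3). Of 6 cholangiocyte markers, 5 were tested, with 4 lower and 1 higher (sums 512 to 613 in female against 1643 to 2492). Of 6 mesothelial markers, 5 were tested, with 4 higher and 1 lower (382 to 423 against 117 to 119.5). Without Msln the sums were 65.8 to 82.9 in female against 96.8 to 99.4 in male, most of which was the general epithelial keratin Krt18 (49.7 ± 4.97 against 96.0 ± 2.20, SD, n = 3), the 1 lower gene. Wt1 (12.8 ± 0.990 against 0.101 ± 0.0163, SD, n = 3) was higher, as was Upk3b, at 1.37, 3.80 and 4.65 in the female libraries and 0 reads in each male one. Of 12 hepatocyte markers, 9 were in the table and 1 was tested, Ass1, which was higher (28.3 ± 9.85 against 8.97 ± 1.26, SD, n = 3). Ass1 made up most of the sums of 22.9 to 40.0 in female and 9.62 to 12.7 in male. Without it they were 0.354 to 0.415 in female against 1.80 to 2.36 in male, from 8 genes too low to test. Of these, Alb (means 0.0435 and 0.584), Fgb (0.0442 and 0.954) and Ttr (0 and 0.164) had every female library under the male ones. Cps1 had 0 reads in each male library and 1 to 2 in each female one, the groups overlapped for Apoa1, Serpina1a and Hnf4a, and Cyp3a11 had 0 reads. Of 12 macrophage markers, 10 were in the table and 3 were tested, all higher, with Tyrobp at 0 reads and sums of 14.2 to 17.1 against 7.38 to 9.57. None of 8 lymphocyte markers was in the analysed table.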
